A study of Mus musculus with 6 samples.

Results

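Collagens are the main structural proteins of the extracellular matrix, and 44 collagen genes were followed in cultured mouse pancreatic buds. The family was picked for description with earlier results of these data known, but its members follow from names: every row whose gene symbol had the collagen form (Col, a type number, the letter a and a chain number) was taken. All 44 genes with such a symbol in the RefSeq gene table had a row, among 24010 named genes measured in all. By the structure of their proteins they fell into 11 fibrillar collagens, 6 type IV collagens of basement membranes, 9 FACIT collagens (fibril-associated collagens with interrupted helices) and 18 others. The others were 6 beaded-filament (type VI) chains, 3 hexagonal-network chains, 2 multiplexins, 4 transmembrane collagens, 1 anchoring-fibril chain and 2 chains outside these subclasses.

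The tissue was the dorsal pancreatic bud of mouse embryos at E11.5, cultured for 24 h. The 6 samples were each a pool of 10 buds on its own array and formed 3 groups of 2: buds given I-BET151 at 500 nM, buds given JQ1 at 100 nM, and control buds given 0.1% DMSO, the solvent. I-BET151 and JQ1 are chemically different inhibitors of BET bromodomain proteins, which bind acetylated histones and help to start and extend transcription. Strain and sex are not stated, nor is it stated that the 2 pools of each treatment were independent in litter or day. The p-values therefore cover pool-to-pool spread that may be technical.

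Collagen chains assemble inside the endoplasmic reticulum into helical trimers, are secreted, trimmed and crosslinked, and then act as scaffold and as ligand for cell receptors. Fibrillar types I, III and V form the cables of loose connective tissue, type IV forms the sheet under epithelia and around vessels, FACIT collagens decorate fibrils, and type VI links fibrils to basement membranes. In the embryonic pancreas the mesenchyme around the epithelium is the chief producer of fibrillar collagen, while epithelium and endothelium lie on sheets that contain type IV collagen.

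Some promoters are shown first, because they belong to collagens that fell with the inhibitors and to fibrillar chains that passed no test. Of the 44 genes, 35 had a promoter in the RefSeq table for GRCm38.p6, with 38 start sites in all, and the 250 bases before each start were searched on both strands for 4 motifs. Capitals mark matches to these motifs. The TATA box was searched as the letters TATAAA. The second motif was the CCAAT box, spelled as named. The GC box was searched as GGGCGG, and the AP-1 site was searched as TGANTCA, where N is any base. A match on the opposite strand appears here as the reverse complement. No match of 1 motif overlapped a match of another in the windows shown. Each window is written 5′ to 3′ on the strand of its gene. The first 4 genes fell when both inhibitors were averaged, and the last 2 passed no test.
Col8a1 (chr16:57754738-57754987, minus strand): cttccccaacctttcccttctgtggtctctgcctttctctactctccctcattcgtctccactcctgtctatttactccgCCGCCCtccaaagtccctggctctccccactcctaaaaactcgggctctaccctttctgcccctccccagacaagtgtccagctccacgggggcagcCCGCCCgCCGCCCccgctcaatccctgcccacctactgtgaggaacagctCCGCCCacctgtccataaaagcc
Col15a1 (chr4:47207762-47208011, plus strand): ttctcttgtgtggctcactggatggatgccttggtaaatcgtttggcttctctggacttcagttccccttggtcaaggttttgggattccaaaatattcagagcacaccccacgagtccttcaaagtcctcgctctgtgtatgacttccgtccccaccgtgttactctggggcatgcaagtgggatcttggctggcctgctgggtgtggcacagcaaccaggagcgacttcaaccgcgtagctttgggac
Col24a1 (chr3:145292222-145292471, plus strand): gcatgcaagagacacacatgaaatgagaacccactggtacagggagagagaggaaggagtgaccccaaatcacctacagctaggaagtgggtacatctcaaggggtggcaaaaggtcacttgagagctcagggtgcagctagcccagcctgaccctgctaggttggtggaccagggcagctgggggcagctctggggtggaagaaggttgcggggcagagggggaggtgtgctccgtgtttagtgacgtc
Col6a1 (chr10:76726045-76726294, minus strand): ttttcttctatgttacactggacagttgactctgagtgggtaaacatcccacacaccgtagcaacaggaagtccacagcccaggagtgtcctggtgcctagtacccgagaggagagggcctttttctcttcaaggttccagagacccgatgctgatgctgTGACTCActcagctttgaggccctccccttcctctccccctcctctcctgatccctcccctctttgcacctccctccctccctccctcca
Col1a2 (chr6:4505368-4505617, plus strand): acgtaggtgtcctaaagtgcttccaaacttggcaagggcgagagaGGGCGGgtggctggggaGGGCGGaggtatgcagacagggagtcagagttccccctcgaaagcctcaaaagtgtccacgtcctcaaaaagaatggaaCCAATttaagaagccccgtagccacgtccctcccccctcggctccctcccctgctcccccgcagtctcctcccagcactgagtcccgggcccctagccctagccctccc
Col3a1 (chr1:45311288-45311537, plus strand): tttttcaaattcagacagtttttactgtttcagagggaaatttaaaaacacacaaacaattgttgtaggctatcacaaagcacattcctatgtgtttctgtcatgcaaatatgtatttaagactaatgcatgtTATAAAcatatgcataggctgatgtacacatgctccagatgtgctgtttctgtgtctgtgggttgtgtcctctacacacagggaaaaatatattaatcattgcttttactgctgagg

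Col8a1 carried 4 GC boxes, Col6a1 carried 1 AP-1 site, and Col15a1 and Col24a1 carried no match in this window. Col1a2 carried 2 GC boxes and 1 CCAAT box, and Col3a1 carried 1 TATA box. Over the collagens, 22 of 38 windows held a GC box, against 32.7% of the 32851 windows of all genes. A CCAAT box was in 13 collagen windows (33.8% of all windows), a TATA box in 5 (12.4%) and an AP-1 site in 1 (6.75%). The median GC content was 59% in collagen windows and 52.4% in all windows. These matches describe the letters of the windows, not binding.

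Collagen transcripts as a family did not move together. Averaged over both inhibitors, 6 of the 44 collagens fell, none rose and 38 passed no test. The 6 were Col8a1, Col14a1, Col15a1, Col6a1, Col24a1 and Col2a1, which belong to 5 different kinds of collagen. With I-BET151 alone, Col8a1 and Col14a1 fell, and with JQ1 alone Col8a1, Col14a1 and Col15a1 fell. The type IV chains and the fibrillar chains Col3a1, Col5a1 and Col5a2 stayed within 0.21 of the control level on the log2 scale in the fitted changes of both inhibitors.

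Calls were made with limma's moderated test on log2 intensity, fitted to all 6 arrays, at a Benjamini-Hochberg adjusted p (over 24010 genes) under 0.05. In either direction, 1.13%, 3.8% and 4.92% of all genes were called with I-BET151, JQ1 and their mean. The 2 collagens called lower with I-BET151 were 4.55% of the family, against 0.87% of all genes called lower. The 3 called lower with JQ1 were 6.82%, against 2.67% of all genes. For the mean of both inhibitors the 6 were 13.6%, against 3.33% of all genes. No collagen was called higher, where 0.262%, 1.13% and 1.59% of all genes were with I-BET151, JQ1 and their mean. At an unadjusted p under 0.05, 12, 16 and 14 of the 44 collagens differed with I-BET151, JQ1 and their mean, beside 18.9%, 21.6% and 22.7% of all genes. Calls came more often among bright genes, and 26 of the 44 collagens lay above the median gene in mean log2 intensity. Among those 26, 2, 3 and 5 fell with I-BET151, JQ1 and their mean, beside 1.28%, 4.17% and 5.15% of all genes above the median gene. At an unadjusted p under 0.05, 11, 14 and 13 of the 26 differed, beside 3300, 3851 and 4106 of the 12005 genes above the median gene. With only 2 arrays a group the counts rest on little: without any 1 of the 6 arrays, no collagen was called over all genes in any of these comparisons. When genes below the median gene were also left out, 2 to 6 collagens were called with I-BET151, 5 to 8 with JQ1 and 3 to 10 for the mean, and every one of them was a fall.

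Counting arrays in place of tests, both I-BET151 arrays lay below both control arrays for 17 collagens (38.6%, against 20.7% of all genes) and above both for 5 (11.4%, against 21.5%). The JQ1 arrays lay below both controls for 17 collagens (38.6%, against 21% of all genes) and above both for 4 (9.09%, against 23.9%). All 4 inhibitor arrays lay below both controls for 13 collagens (29.5%, against 14.9%) and above both for 3 (against 14.4%). The I-BET151 and JQ1 comparisons share the same 2 control arrays, so the 2 counts are not independent. Separate arrays were also commoner among bright genes. Of the 26 collagens above the median gene, 12, 15 and 12 were lower with I-BET151, JQ1 and both. Among all genes above the median gene, 29%, 30.4% and 22.9% were lower. In each comparison 1 of the 26 was higher, beside 30.5%, 32.4% and 23.2% of those genes. The median log2 change over the 44 collagens was −0.07 with I-BET151 and −0.04 with JQ1, beside medians of 0.00 and 0.02 over all genes.

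**Figure D1:**
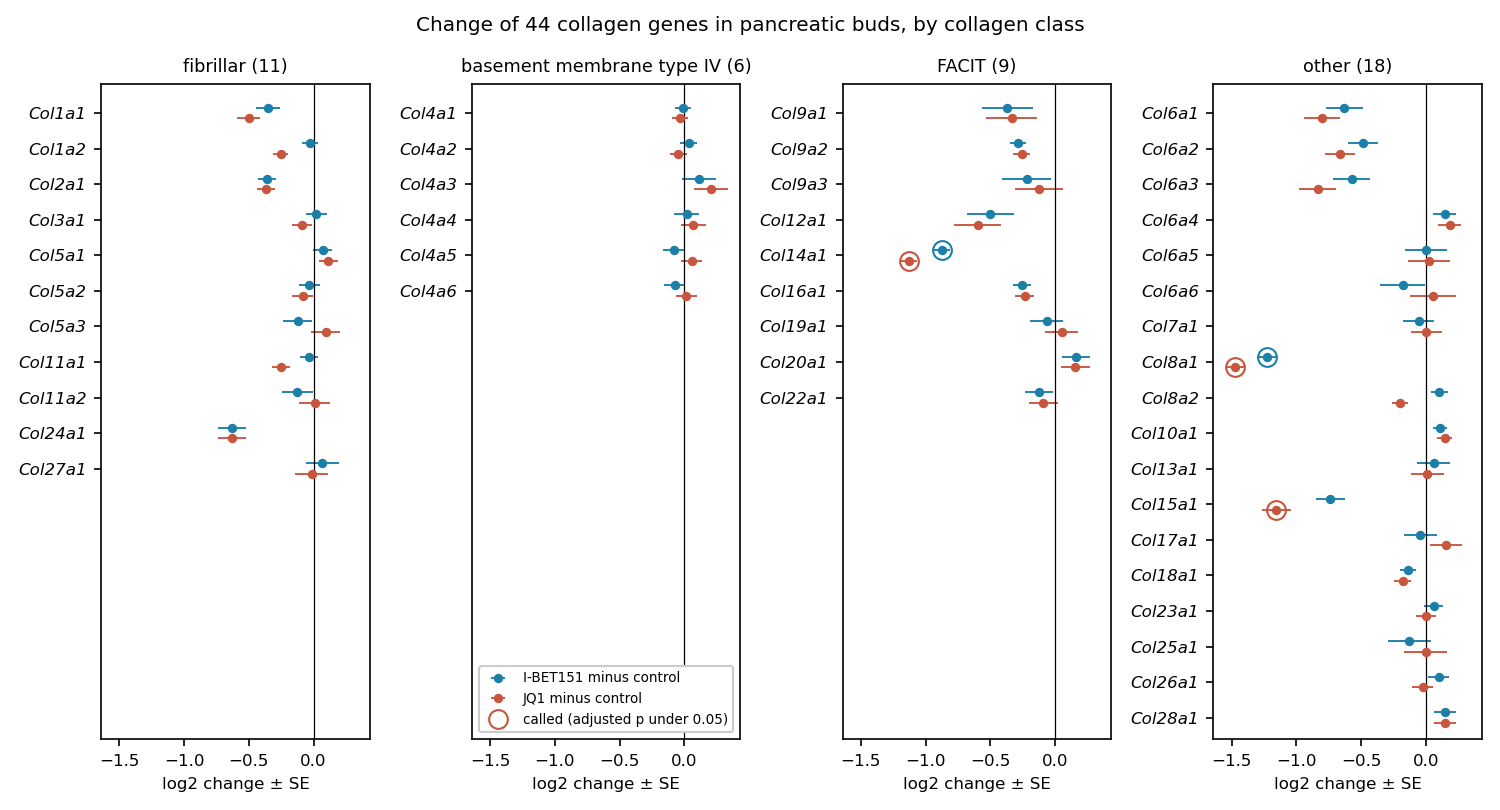
Log2 change (horizontal axis, with SE bars) of each of the 44 collagens, in 4 panels by class, with I-BET151 minus control above JQ1 minus control in each row and rings around changes with an adjusted p under 0.05. The ringed points are Col8a1 and Col14a1 for both inhibitors and Col15a1 for JQ1, and the 6 type IV chains lie close to 0.

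Col8a1 showed the lowest fitted change of the 44 collagens with each inhibitor. It encodes a short chain that builds hexagonal networks in vessel walls and in the membrane behind the cornea. Its intensity was 98 and 88 on the I-BET151 arrays, 79 and 78 on the JQ1 arrays, and 213 and 222 on the control arrays. All 4 inhibitor arrays were far below both controls, and both JQ1 arrays were below both I-BET151 arrays. The means were 93 ± 7.07 with I-BET151, 78.5 ± 0.707 with JQ1 and 217.5 ± 6.36 in controls (SD, n = 2 each). Col8a1 fell 2.34-fold with I-BET151 (log2 change −1.23 ± 0.08 SE, limma adjusted p = 0.0306) and 2.77-fold with JQ1 (−1.47 ± 0.08, limma adjusted p = 0.0112). Its partner chain Col8a2, with 50 and 50 on the I-BET151 arrays, 39 and 42 on the JQ1 arrays, and 47 and 46 in controls, passed no test. Col10a1, the hexagonal-network chain of hypertrophic cartilage, stayed between 19 and 21 on every array.

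Col14a1 encodes a FACIT collagen that sits on fibril surfaces and limits their lateral fusion. It had an intensity of 141 and 142 with I-BET151, 118 and 119 with JQ1, and 267 and 251 in controls. The groups were fully separate, with JQ1 lowest and the controls highest. It fell 1.83-fold with I-BET151 (log2 change −0.87 ± 0.06 SE, limma adjusted p = 0.0342) and 2.18-fold with JQ1 (−1.13 ± 0.06, limma adjusted p = 0.0112). Col8a1 and Col14a1 were also called with each inhibitor in all 6 fits that left out 1 array together with the genes below the median gene.

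Col15a1 encodes a multiplexin of the outer basement membrane zone around vessels, nerves and muscle. Its intensity was 62 and 54 with I-BET151, 40 and 47 with JQ1, and 98 and 95 in controls. Again every inhibitor array was below both controls and the JQ1 arrays were below the I-BET151 arrays. Col15a1 fell 2.23-fold with JQ1 (log2 change −1.15 ± 0.11 SE, limma adjusted p = 0.0208). With I-BET151 its log2 change was −0.74 ± 0.11 (limma adjusted p = 0.0708), which passed no threshold. The other multiplexin, Col18a1, whose end fragment is endostatin, had 204 and 201 with I-BET151, 190 and 204 with JQ1, and 224 and 222 in controls. Its log2 changes of −0.14 and −0.18 for I-BET151 and JQ1 passed no test, although all 4 inhibitor arrays were below both controls.

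**Figure D2:**
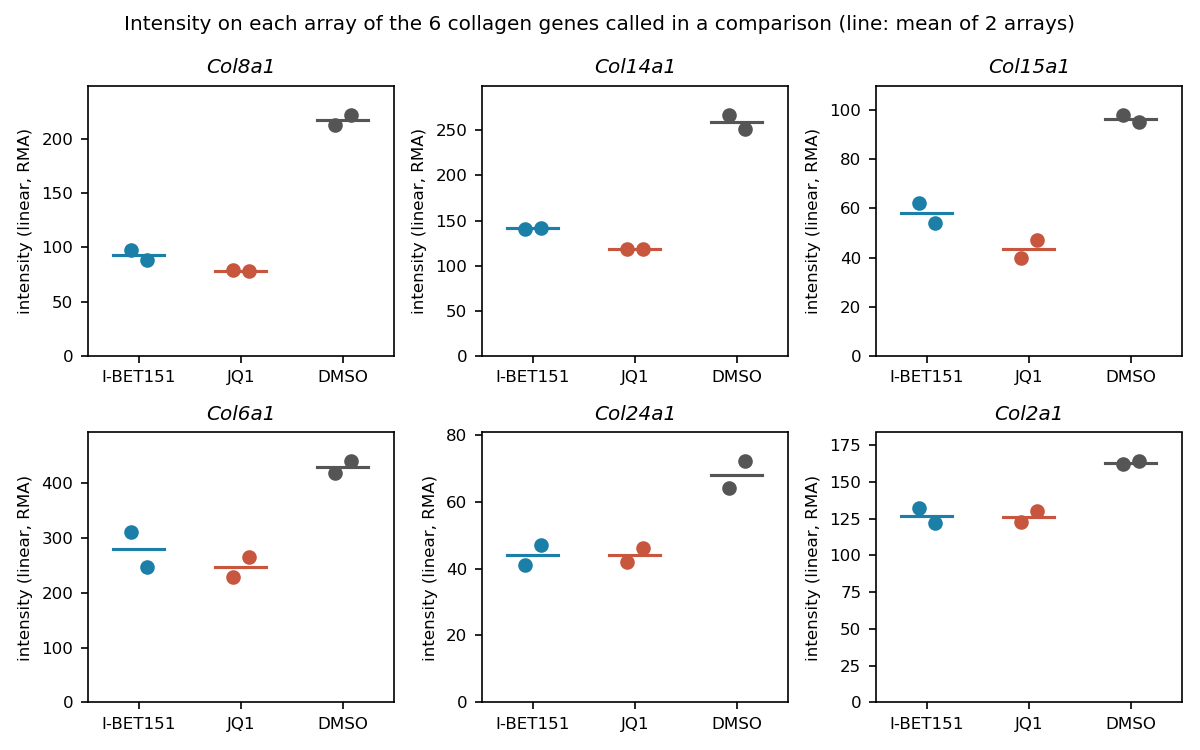
Linear RMA intensity (vertical axis, starting at 0) on each of the 6 arrays for the 6 collagens called in at least 1 comparison, with I-BET151, JQ1 and DMSO control from left to right and a line at the mean of 2 arrays. In every panel all 4 inhibitor points lie below both control points (for Col2a1 the highest inhibitor value is 132 and the lowest control value 162).

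Type VI collagen forms beaded filaments from Col6a1, Col6a2 and a further chain that is most often Col6a3. Col6a1 had an intensity of 312 and 247 with I-BET151, 229 and 265 with JQ1, and 419 and 440 in controls. Col6a2 had 166 and 136 with I-BET151, 138 and 127 with JQ1, and 204 and 216 in controls. Col6a3 had 91 and 94 with I-BET151, 86 and 69 with JQ1, and 126 and 150 in controls. For each of these chains all 4 inhibitor arrays were below both controls. For the mean of both inhibitors Col6a1 fell 1.64-fold (log2 change −0.72 ± 0.12 SE, limma adjusted p = 0.0495). Col6a2 (−0.57 ± 0.10, limma adjusted p = 0.0529) and Col6a3 (−0.70 ± 0.12, limma adjusted p = 0.0523) lay just on the other side of the threshold. None of these chains passed with a single inhibitor, where limma adjusted p ran from 0.126 to 0.143 for I-BET151 and from 0.0545 to 0.057 for JQ1. Col6a4, Col6a5 and Col6a6, chains that can take the place of Col6a3, lay between 18 and 58 and passed no test. In the RefSeq table Col6a1 and Col6a2 are direct neighbours on chromosome 10, with no coding gene between them, while Col6a3 is on chromosome 1. Col6a4, Col6a5 and Col6a6 are direct neighbours on chromosome 9.

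Among fibrillar collagens, Col24a1 and Col2a1 fell when both inhibitors were averaged, and none of the 11 was called with a single inhibitor. Col24a1, a minor fibrillar chain known from developing bone, had an intensity of 41 and 47 with I-BET151, 42 and 46 with JQ1, and 64 and 72 in controls. It fell 1.55-fold for the mean of both inhibitors (log2 change −0.63 ± 0.09 SE, limma adjusted p = 0.0385). Col2a1, the cartilage collagen, had 132 and 122 with I-BET151, 123 and 130 with JQ1, and 162 and 164 in controls. It fell 1.29-fold for the mean of both (log2 change −0.36 ± 0.06 SE, limma adjusted p = 0.0467). In both genes the inhibitor arrays were below the controls and the inhibitors overlapped each other.

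The main chains of connective-tissue fibrils differed among themselves. Col1a1, the major type I chain, had an intensity of 1245 and 1119 with I-BET151, 1007 and 1125 with JQ1, and 1480 and 1531 in controls. All inhibitor arrays were below both controls, but the log2 changes of −0.35 (95% interval −0.59 to −0.12) for I-BET151 and −0.50 (−0.74 to −0.26) for JQ1 passed no test over all genes (limma adjusted p = 0.152 and 0.0599). Col1a2, its partner in the type I trimer, had 1169 and 1125 with I-BET151, 992 and 968 with JQ1, and 1145 and 1192 in controls. The I-BET151 arrays overlapped the controls (log2 change −0.03, 95% interval −0.18 to 0.13), and the JQ1 arrays were below them (−0.25, −0.41 to −0.10, limma adjusted p = 0.098). Col3a1, the type III chain, had 830 and 765 with I-BET151, 706 and 769 with JQ1, and 803 and 767 in controls. Its groups overlapped, with log2 changes of 0.02 (95% interval −0.18 to 0.23) for I-BET151 and −0.09 (−0.30 to 0.11) for JQ1.

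Type V collagen, which starts fibril assembly together with type I, gave log2 changes of 0.07 and 0.11 for Col5a1 with I-BET151 and JQ1. Its inhibitor arrays, at 263 and 284 with I-BET151 and 270 and 293 with JQ1, were all just above the controls at 258 and 262, and passed no test. Col5a2 lay at 335 and 326 with I-BET151, 330 and 308 with JQ1, and 358 and 319 in controls, and its groups overlapped. Col3a1 and Col5a2 are direct neighbours on chromosome 1. Col11a1 had 152 and 157 with I-BET151, 137 and 128 with JQ1, and 153 and 163 in controls, with a JQ1 log2 change of −0.25 (limma adjusted p = 0.129). Col5a3, Col11a2 and Col27a1 had log2 changes between −0.13 and 0.09 and passed no test. Over the 11 fibrillar genes the median log2 change was −0.03 with I-BET151 and −0.09 with JQ1, with 8 of 11 negative in each.

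Type IV collagen, the basement membrane network, showed no called gene in any comparison. Col4a1 had an intensity of 210 and 198 with I-BET151, 200 and 202 with JQ1, and 204 and 207 in controls. Its log2 change was −0.01 (95% interval −0.17 to 0.14) for I-BET151 and −0.03 (−0.19 to 0.12) for JQ1. Col4a2, its partner in the commonest type IV trimer and its direct neighbour on chromosome 8, had 181 and 174 with I-BET151, 163 and 173 with JQ1, and 170 and 177 in controls. Its log2 change was 0.03 (−0.14 to 0.20) for I-BET151 and −0.05 (−0.22 to 0.12) for JQ1. Subtracting each array's median turned the sign of Col4a1 with both inhibitors (0.04 and 0.03) and of Col4a2 with JQ1 (0.02), so neither has a direction. Col4a3 had the largest fitted change of the class for the mean of both inhibitors, 0.16 (95% interval −0.14 to 0.46). Its intensities were low and overlapped, at 21 and 19 with I-BET151, 19 and 24 with JQ1, and 18 and 19 in controls. Col4a4, Col4a5 and Col4a6, the other chains of kidney, lung and epidermal networks, had log2 changes between −0.08 and 0.07 with each inhibitor. The median change of the 6 chains was 0.00 with I-BET151 and 0.04 with JQ1.

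FACIT collagens had the lowest class median, −0.25 with I-BET151 and −0.23 with JQ1, with 8 of 9 and 7 of 9 changes negative. Only Col14a1 was called in this class. Col12a1, a FACIT of tendon and other loaded tissue, had 149 and 168 with I-BET151, 157 and 139 with JQ1, and 190 and 263 in controls. All inhibitor arrays were lower, but the controls differed from each other by more than the gap, and limma adjusted p was 0.244 and 0.155 for I-BET151 and JQ1. Col16a1 had 85 and 77 with I-BET151, 81 and 83 with JQ1, and 97 and 96 in controls, and Col9a2, a chain of cartilage fibril surfaces, had 182 and 194, 189 and 194, and 234 and 224 in the same groups. Both had every inhibitor array below the controls and neither passed a test, with limma adjusted p of 0.101 and 0.0696 for the mean of both. Col9a1, Col9a3, Col19a1, Col20a1 and Col22a1 lay between 21 and 74 and their log2 changes ran from −0.37 to 0.16, none of them called.

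The remaining classes held little movement. The 4 transmembrane collagens, Col13a1, Col17a1, Col23a1 and Col25a1, had log2 changes between −0.13 and 0.16 and their inhibitor arrays overlapped the controls in every case. Col7a1, the anchoring fibril of skin, changed by −0.06 with I-BET151 and 0.00 with JQ1. Col26a1 and Col28a1 passed no test, although Col28a1 read 21 and 19 with I-BET151, 19 and 21 with JQ1, and 18 on both controls. Over all 18 genes outside the fibrillar, type IV and FACIT classes the median log2 change was −0.05 with I-BET151 and 0.00 with JQ1, and over the 6 type VI chains it was −0.33 and −0.32. The order of the class medians was not tested. Across the 44 genes, mean log2 intensity and the mean change of both inhibitors had a Spearman rho of −0.39, and RefSeq gene span and the change had 0.19. Both are descriptions across genes measured on the same 6 arrays.

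The ratios of partner chains are described only, because 4 against 2 arrays let no ratio pass a permutation test at 0.05. For 12 pairs of partner chains the log2 ratio of the first to the second was taken within each array, and only its change between arrays is meaningful. The ratio of Col8a1 to Col8a2 was 0.97 and 0.82 with I-BET151, 1.02 and 0.89 with JQ1, and 2.18 and 2.27 in controls, a mean difference of −1.30 between the 4 inhibitor and the 2 control arrays. The ratio of Col1a1 to Col1a2 was 0.09 and −0.01 with I-BET151, 0.02 and 0.22 with JQ1, and 0.37 and 0.36 in controls, a difference of −0.29. In both pairs all 4 inhibitor arrays were below both controls, and the exact two-sided permutation test gave p = 0.0667, the smallest that 4 against 2 arrays allow (0.4 after adjustment over the 12 pairs). The other 10 pairs overlapped. The ratio of Col6a1 to Col6a3 differed by −0.01 (exact permutation p = 1), that of Col6a1 to Col6a2 by −0.14 (exact permutation p = 0.333) and that of Col4a1 to Col4a2 by −0.01 (exact permutation p = 0.8).

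**Figure D3:**
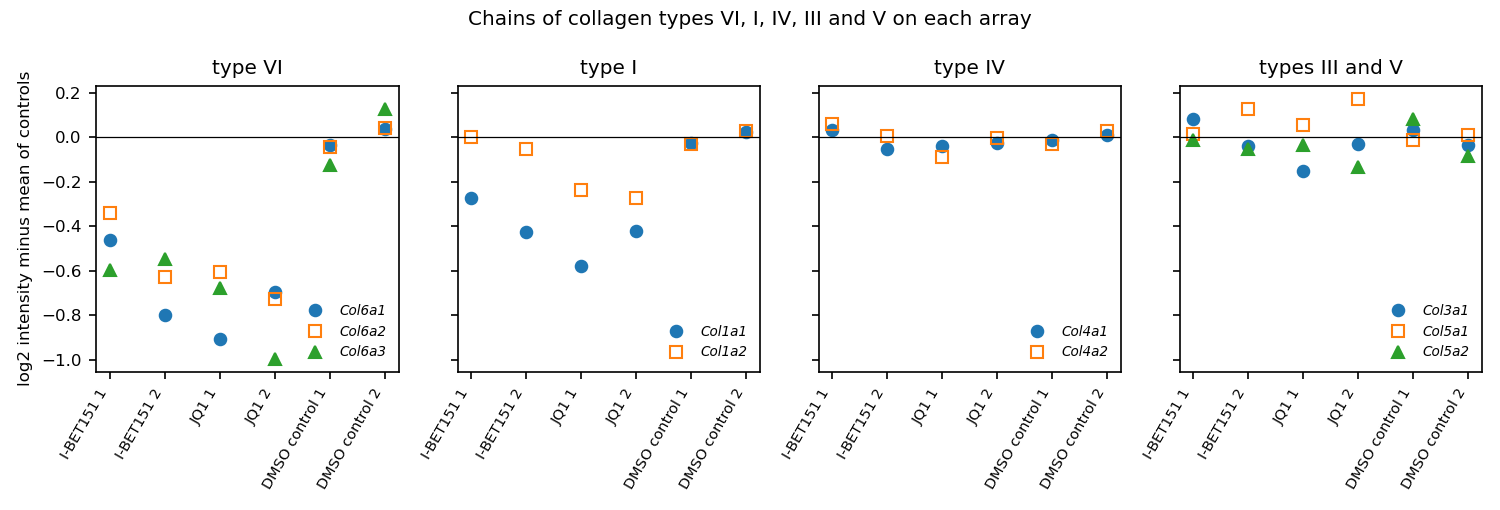
Log2 intensity minus the mean of the control arrays (vertical axis) on each of the 6 arrays, for chains of types VI, I, IV, and III with V. The type VI chains lie below 0 on all 4 inhibitor arrays, Col1a1 lies below Col1a2 on them, and Col4a1 and Col4a2 stay near 0.

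No collagen differed between the inhibitors after adjustment, with JQ1 at 100 nM set against I-BET151 at 500 nM. This was 0 of 44, beside 0 of 24010 genes, and at an unadjusted p under 0.05 it was 6 of 44, beside 6.71% of all genes. Because the doses differ, the values compare these treatments and not the compounds at equal dose. Col8a1 differed by −0.24 for JQ1 minus I-BET151 (95% interval −0.44 to −0.05, limma adjusted p = 0.72). Col14a1 differed by −0.26 (−0.41 to −0.10), Col15a1 by −0.42 (−0.71 to −0.12), Col8a2 by −0.30 (−0.47 to −0.14) and Col1a2 by −0.23 (−0.38 to −0.07), each with a limma adjusted p of 0.718. These intervals cover 1 gene at a time, so a p that misses the threshold does not show that the treatments act alike. Both JQ1 arrays were below both I-BET151 arrays for 9 collagens (13.9% of all genes were) and above for 2 (14.6% of all genes were).

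Summed markers of endothelium, pericytes and mesenchyme, which make collagen, were lower on every inhibitor array than on both controls. The pericyte list held no called marker, and the mesenchymal sum rests mostly on Vim and Pdgfra, which were not called. In pooled buds fewer cells of a type and less RNA per cell cannot be told apart. Endothelial markers summed to 4611 and 4958 with I-BET151, 4324 and 4424 with JQ1, and 6343 and 6495 in controls. All 11 of them had every inhibitor array below both controls (14.9% of all genes did), and 2 fell with I-BET151 (Tek and Eng) and 5 with JQ1 (also Pecam1, Cdh5 and Emcn), beside 0.87% and 2.67% of all genes called lower. Pericyte and smooth-muscle markers summed to 2668 and 2693 with I-BET151, 2482 and 2852 with JQ1, and 3411 and 3270 in controls. Of these 7 markers 0 were called, while 7 had both I-BET151 arrays (20.7% of all genes did) and 6 had all 4 inhibitor arrays (14.9%) below both controls. Mesenchymal markers summed to 14103 and 14272 with I-BET151, 14406 and 14217 with JQ1, and 15446 and 15514 in controls. Of these 14, 0 were called with I-BET151 (0.87% of all genes fell) and 3 fell with JQ1 (Prrx1, Prrx2 and Meox1, beside 2.67%). For the mean of both 4 fell (also Meox2, beside 3.33%) and 1 rose (Tbx3, log2 change 0.33, limma adjusted p = 0.0456, beside 1.59%). Called or not, 10 of the 14 changes were negative for the mean and 4 positive. Besides Tbx3 the positive ones were Barx1, Nkx3-2 and Foxf1, with log2 changes of 0.19, 0.20 and 0.04, none of them called. Vim and Pdgfra, the brightest of the 14, weigh most in the sum and were not called. Their mean intensities were 6598 and 1716.5 with I-BET151, 6616.5 and 1684.5 with JQ1, and 7075.5 and 2326 in controls. Pecam1, Cdh5, Emcn, Meox1, Meox2, Tbx3, Barx1, Nkx3-2, Foxf1, Vim and Pdgfra lie outside the naming rule, which takes the smallest p of each list. The part of these shifts in the lower collagen signals was not tested.

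The 5 neural crest markers measured summed to 870 and 1047 with I-BET151, 813 and 935 with JQ1, and 1812 and 1883 in controls. Most of that gap came from Fabp7, a fatty acid binding protein of glial precursors, with 191 and 317 with I-BET151, 154 and 185 with JQ1, and 795 and 829 in controls, and from Ednrb, the endothelin receptor, with 387 and 422, 369 and 406, and 641 and 665 in the same groups. Ednrb fell with I-BET151 and both fell with JQ1, beside 0.87% and 2.67% of all genes called lower. The defining factors Foxd3 (78 and 71, 69 and 74, 75 and 84) and Sox10 (45 and 43, 42 and 56, 54 and 49), given after their values were seen, were not called. The 7 cartilage markers summed to 806 and 849 with I-BET151, 841 and 783 with JQ1, and 982 and 1007 in controls, and Hapln1, a link protein of cartilage matrix, had 19 and 20, 16 and 17, and 86 and 57 in these groups. Of the 7, 1 fell with I-BET151, 2 with JQ1 and 3 for the mean of both, beside 0.87%, 2.67% and 3.33% of all genes. None rose, and 4 of 7 changes were negative for the mean. The part of such cells in the values of Col2a1 and Col9a2 was not tested. Epithelial markers, including the pancreatic genes Pdx1, Ptf1a and Nkx6-1, were at 53 or more on every array, and the 11 of them summed to 5910 and 5860 with I-BET151, 5672 and 6382 with JQ1, and 6002 and 5983 in controls. Of these 11, Krt18, a keratin, fell with JQ1 (log2 change −0.53, limma adjusted p = 0.0277, beside 2.67% of all genes called lower) and no other was called. For 4 of the 11 all 4 inhibitor arrays lay below both controls (14.9% of all genes did) and for 1 above both (14.4% did). Mesothelial sums were 2011 and 2071 with I-BET151, 1931 and 1716 with JQ1, and 2000 and 1928 in controls. Of these 6 markers, Upk3b fell with JQ1 and for the mean of both (2.67% and 3.33% of all genes fell). Wt1 rose for the mean (1.59% of all genes rose). Macrophage sums were 2296 and 2150 with I-BET151, 1924 and 2035 with JQ1, and 2267 and 2513 in controls. Of these 6 markers, Fcgr1 fell with each inhibitor (0.87% and 2.67% of all genes fell with I-BET151 and JQ1). No marker lay at the lowest value of the table, 5. The 6 arrays had medians of 54 to 57 and correlated at 0.995 to 0.996 within groups and 0.990 to 0.993 between an inhibitor and control.

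Genes that process collagen were read from lists by role, and the members named here are those with the smallest p of each list for the mean of both inhibitors. Of 19 genes that modify or fold procollagen, 1 fell with I-BET151 (0.87% of all genes fell), and with JQ1 2 fell and 1 rose (2.67% and 1.13% of all genes). P3h2, a prolyl hydroxylase that acts on type IV collagen, had 166 and 171 with I-BET151, 152 and 153 with JQ1, and 301 and 274 in controls, and fell with both (limma adjusted p = 0.043 and 0.0154). The catalytic subunits of the enzyme that hydroxylates most collagen prolines went different ways. P4ha3 had 174 and 154 with I-BET151, 128 and 101 with JQ1, and 391 and 325 in controls, and fell 3.14-fold with JQ1 (limma adjusted p = 0.0208; 0.064 with I-BET151). P4ha1 had 344 and 392 with I-BET151, 418 and 391 with JQ1, and 262 and 275 in controls, and rose 1.51-fold with JQ1 (limma adjusted p = 0.0446; 0.104 with I-BET151). P4ha2 had 65 and 74 with I-BET151, 65 and 63 with JQ1, and 94 and 85 in controls, and was not called. The median log2 change of the list was −0.08 with I-BET151 and −0.06 with JQ1.

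Of 8 genes of procollagen secretion 1 was called with each inhibitor, Mia2, beside 0.87% (I-BET151) and 2.67% (JQ1) of all genes called lower. Mia2, a cargo receptor at the exit sites of the endoplasmic reticulum, had 30 and 36 with I-BET151, 24 and 26 with JQ1, and 89 and 74 in controls, and fell with both inhibitors (log2 change −1.30 and −1.70, limma adjusted p = 0.0449 and 0.0156). The array's annotation keeps Ctage5, a transcript of the same locus, as a row of its own, at 719 and 687 with I-BET151, 657 and 640 with JQ1, and 793 and 754 in controls, and that row was not called.

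Enzymes that cleave and crosslink collagen had a median log2 change of −0.27 with I-BET151 and −0.31 with JQ1, and 3 of 14 fell with I-BET151 (0.87% of all genes) and 5 of 14 with JQ1 (2.67%), with no rise. Lox, the lysyl oxidase that starts crosslinking, had 34 and 45 with I-BET151, 41 and 35 with JQ1, and 106 and 101 in controls, and fell 2.65-fold and 2.73-fold (limma adjusted p = 0.0461 and 0.0251). Its relative Loxl3 had 238 and 230 with I-BET151, 191 and 200 with JQ1, and 366 and 356 in controls, and fell with both. Pcolce, which speeds removal of the procollagen end piece, had 153 and 144 with I-BET151, 129 and 138 with JQ1, and 228 and 249 in controls, and fell with both. Tgm2, a transglutaminase that crosslinks matrix proteins, fell with JQ1, at 259 and 281 with I-BET151, 215 and 185 with JQ1, and 388 and 382 in controls. Loxl1, outside the naming rule, was the other fall with JQ1. The 13 genes of collagen degradation had medians of −0.01 with I-BET151 and −0.08 with JQ1, and 2 fell with I-BET151 and 3 with JQ1 (0.87% and 2.67% of all genes), with no rise. Mmp9, a gelatinase, had 68 and 62 with I-BET151, 53 and 60 with JQ1, and 122 and 123 in controls, and Timp1, an inhibitor of such enzymes, had 85 and 96, 88 and 86, and 159 and 147 in the same groups. Both fell with each inhibitor. Mmp2, a second gelatinase, had 1151 and 1072 with I-BET151, 960 and 874 with JQ1, and 1316 and 1325 in controls, and fell with JQ1 (limma adjusted p = 0.0403; 0.192 with I-BET151).

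Receptors for collagen had medians of −0.43 with I-BET151 and −0.55 with JQ1, with 0 of 10 called for I-BET151 and 2 falls for JQ1, beside 0.87% and 2.67% of all genes called lower. Adgrg1, an adhesion receptor that binds type III collagen, had 246 and 249 with I-BET151, 180 and 223 with JQ1, and 433 and 442 in controls (limma adjusted p = 0.0609 and 0.0217). Itga2, the α chain of a collagen-binding integrin, had 195 and 209 with I-BET151, 151 and 128 with JQ1, and 292 and 309 in controls (limma adjusted p = 0.0888 and 0.0193). Non-collagen parts of the basement membrane had positive medians, 0.23 with I-BET151 and 0.09 with JQ1, no member fell, and of 12 members 0 rose with I-BET151 and 1 with JQ1 (0.262% and 1.13% of all genes rose). Agrn, a heparan sulphate proteoglycan, had 801 and 750 with I-BET151, 778 and 817 with JQ1, and 558 and 585 in controls, and rose with JQ1 (log2 change 0.48, limma adjusted p = 0.0396). Lama1, the laminin chain of early embryonic basement membranes, had 266 and 252 with I-BET151, 260 and 264 with JQ1, and 157 and 189 in controls, and rose for the mean of both (log2 change 0.60, limma adjusted p = 0.0402). Lama4, a laminin chain of vessel walls, went the other way without a call, at 183 and 241 with I-BET151, 187 and 160 with JQ1, and 270 and 311 in controls (limma adjusted p = 0.251 and 0.0938).

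Small proteoglycans and other proteins that bind fibrils had the lowest list medians, −0.56 with I-BET151 and −0.69 with JQ1, and 4 of 14 fell with I-BET151 and 7 of 14 with JQ1, beside 0.87% and 2.67% of all genes. Postn (periostin), a matrix protein that binds collagen and Bmp1, had 124 and 148 with I-BET151, 115 and 104 with JQ1, and 489 and 550 in controls, and fell 3.83-fold and 4.74-fold (limma adjusted p = 0.0306 and 0.0112). Bgn (biglycan) had 822 and 826 with I-BET151, 671 and 625 with JQ1, and 1692 and 1514 in controls, and fell 1.94-fold and 2.47-fold (limma adjusted p = 0.0421 and 0.0116). Dcn (decorin) had 117 and 136 with I-BET151, 97 and 76 with JQ1, and 315 and 302 in controls. Fmod (fibromodulin) had 90 and 106 with I-BET151, 89 and 82 with JQ1, and 188 and 177 in controls. Both fell with each inhibitor. The median of all genes beside these lists was 0.00 with I-BET151 and 0.02 with JQ1, and the lists were not tested as sets.

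**Figure D4:**
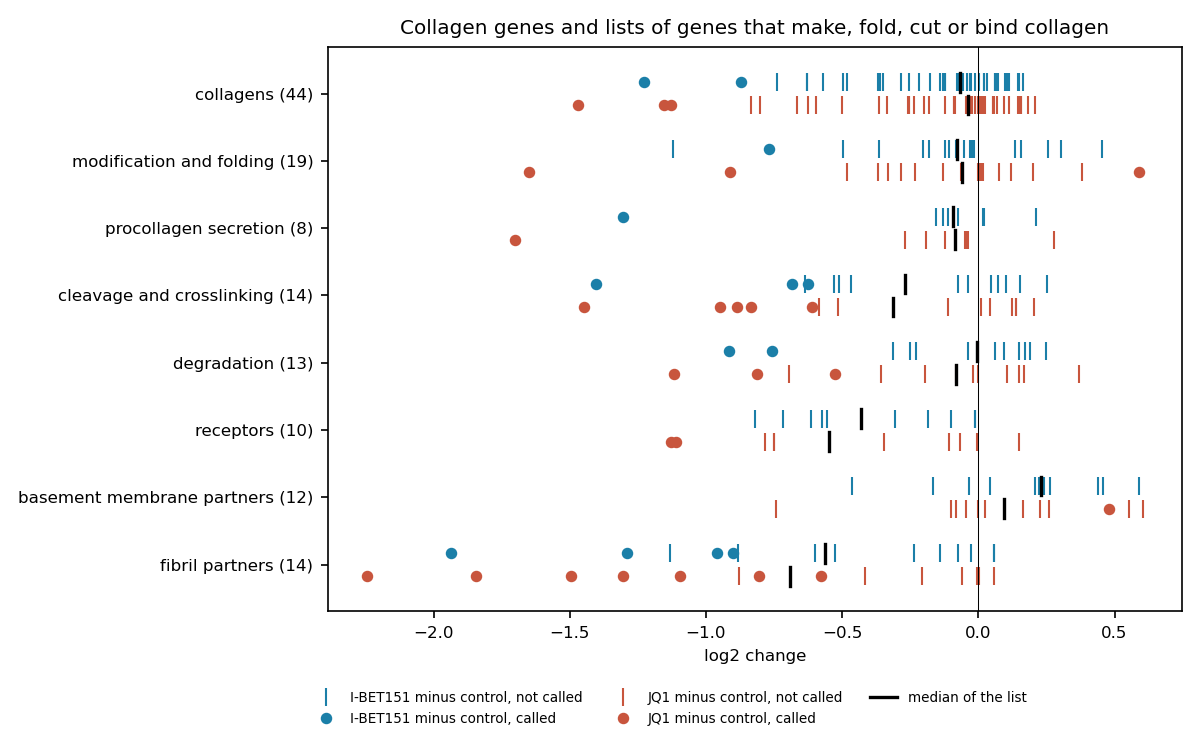
Log2 change (horizontal axis) of each gene in the collagen family and in 7 lists of genes that modify, secrete, crosslink, degrade or bind collagen, with I-BET151 minus control above JQ1 minus control in each row, dots for called genes, ticks for the rest and a black bar at the median. The fibril partners have the lowest medians, −0.56 and −0.69, and the basement membrane partners the highest, 0.23 and 0.09.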

How the data were processed

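Total RNA of 6 pooled cultures was hybridised to 1-colour Affymetrix whole-transcript arrays, per the labels' protocols. The deposited table holds 1 intensity per gene and array on a linear scale, as whole numbers of 5 or more, which the authors normalized with RMA per the submitters' processing notes. Version, probe summary and genome build: not given in the sources used here. Because RMA equalises array distributions, a global shift of transcript levels is invisible, and rounding leaves coarse steps in dim genes. Arrays have no read depth, and precision is limited by having 2 of them in each group.

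Gene symbols came from the platform annotation: 24014 of 24972 rows had 1 symbol, none had several, 958 were not listed, and 4 second rows of a symbol were dropped. Of the row IDs used, 23918 were found in a RefSeq table of GRCm38.p6, used for names and gene order. Groups and replicate numbers came from the sample titles. Log2(intensity), with no pseudocount and no filter, was fitted with limma 3.58.1 in R 4.3.3 (lmFit, eBayes) over all 6 arrays, with 3 residual and 1.76 prior degrees of freedom. There were 4 contrasts, each adjusted by Benjamini-Hochberg over 24010 genes, and "rose" and "fell" mean an adjusted p under 0.05. Values ± SD have n = 2, and intervals are 95% intervals of 1 gene. The fit was tested on simulated data. Promoter sequences are RefSeq's.

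The collagen family and the lists were chosen with earlier results of these data known; within the family the symbol alone decided membership. Named were all collagens called in any contrast, Col1a1, Col1a2, Col3a1, Col4a1, Col4a2 and Col6a1, the largest change of each class, and, by the smallest p for the mean of both inhibitors, up to 4 genes of each list and up to 2 markers of each cell type. All of these were picked by their values except the fixed names, and the text marks most list genes and markers outside the rule. Collagens outside it that were given array by array are not marked where they appear. They are Col5a1, Col5a2, Col6a2, Col6a3, Col8a2, Col9a2, Col11a1, Col12a1, Col16a1, Col18a1 and Col28a1. Some genes of the lists were not analysed here. Alternatives were a pseudocount, filters on dim genes, median centring, other variance priors, dithered rounding, 2-group fits, a replicate block and leaving out each array.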

Additional observations from a re-analysis of the deposited data

How the results depend on the processing

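Col8a1 and Col14a1 were called in 14 of the 22 settings run for each inhibitor, and every collagen called in any setting fell. Their changes were negative in all 22, which is no separate check. Filters and priors leave a change as it is. With all 4 inhibitor arrays far below both controls, leaving out an array could not turn the sign. The calls among collagens, which are 2 with I-BET151, 3 with JQ1 and 6 for their mean as reported, depended on how many dim genes entered the fit and on the array number. With genes below the median gene left out they were 7, 10 and 11, and with the dimmest 25% left out 4 and 9 for I-BET151 and JQ1. Dithering the rounding or a robust prior gave 4 and 8, log2(intensity + 16) gave 10 for JQ1 and 10 for the mean, median centring 7 and a trended prior 8 for JQ1. Fits of only the 2 groups compared called 0 for I-BET151 and 0 for JQ1. Leaving out each array in turn left no collagen called while all genes were kept. Collagens were called in these fits only when genes below the median gene were also left out. JQ1 against I-BET151 gave 0 throughout. Same-numbered arrays did not deviate together (correlations −0.04, −0.02 and −0.03). With 2 arrays a group this cannot tell whether same-numbered pools shared a litter or day. With the replicate block the counts were 0, 0 and 0, and with the block and genes below the median gene left out 5, 9 and 10. Fewer genes tested or fewer samples enter the filtered, 2-group and left-out fits, and the cause of the other shifts was not tested.

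Class medians moved without a test. With genes below the median gene left out, each class keeps only its brighter members, and their own changes stay the same. The medians of these members were −0.39 (I-BET151) and −0.43 (JQ1) for FACIT, −0.31 and −0.42 for the other collagens, and −0.032 (JQ1) for type IV. Centring gave 0.019 (I-BET151) and −0.026 (JQ1) for fibrillar, −0.17 (JQ1) for FACIT and 0.10 (JQ1) for type IV. Leaving out each array gave −0.11 to −0.013 (I-BET151) and −0.17 to −0.058 (JQ1) for fibrillar, −0.28 to −0.15 (JQ1) for FACIT, −0.075 to 0.046 (I-BET151) for type IV and −0.17 to 0.038 (JQ1) for the others. Over all settings 16, 17 and 21 of the 44 collagens took both signs with I-BET151, JQ1 and their mean; 0 of them were called, and their reported changes lay between −0.13 and 0.094. Col11a1 was among them with I-BET151 (up to 0.020) and Col8a2 for the mean (up to 0.010). Among the 11 collagens called in a comparison or named whatever they did, 4 turned. Centring gave 0.025 for Col1a2 with I-BET151, 0.040, 0.033 and 0.037 for Col4a1 (I-BET151, JQ1, mean), 0.018 and 0.051 for Col4a2 (JQ1, mean) and 0.024 for Col3a1 (mean). Leaving out each array gave −0.056 to 0.0023 for Col1a2, −0.037 to 0.081 for Col3a1 and −0.054 to 0.031 for Col4a1, all with I-BET151, and −0.036 to 0.022 for Col4a2 (mean). With genes below the median gene also left out, the turned values were 0.00091 and 0.0023 for Col1a2, −0.011 and −0.037 for Col3a1, 0.031 for Col4a1, and 0.0073, 0.015 and 0.022 for Col4a2.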
